A study of Mus musculus with 6 samples.

Results

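The homeobox genes of the Pax, Lhx, Nkx, Irx, Dlx, Msx and Emx families and the sine oculis homologues (such as Six4 and Six6) were examined for open chromatin in 2 lists of ATAC-seq peaks. They were chosen as the autosomal protein-coding genes named with one of these 8 stems and a digit, and there are 54 of 21410 in the GENCODE annotation of mm9. The set holds 14 Nkx, 9 Pax, 8 Lhx, 6 Dlx, 6 Irx, 3 Msx and 2 Emx genes beside 6 sine oculis homologues. Counts cover all 54 genes, and 2 of them are not named. For each gene, every peak that overlapped the gene body or lay within 20 kb of it was taken, which gave 54 of 22698 peaks in the WT list and 46 of 23656 in the Spen KO clone 3 list. The rule used names and positions only and no measured value.

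The study profiled the HATX line, haploid mouse embryonic stem cells (mESCs) of mixed genomic background in which doxycycline switches on an X-linked Xist transgene. The WT line was compared with Spen KO clones 2 and 3, each a single clone that lacks most of the Spen gene. All lines were grown in serum with LIF on gelatin, and each was sampled without doxycycline and after 48 hr in 2 ug/ml doxycycline. In ATAC-seq, the Tn5 transposase cuts accessible DNA and leaves adapters there, so that reads pile up over open chromatin. The lists analysed here are of the WT line and of Spen KO clone 3, and they do not say in which doxycycline state the cells were. Each list joins 2 technical replicates through the Irreproducible Discovery Rate (IDR), so that a line is 1 sample, a difference between the lists has no replicate check, and no p-value is given. The read depth is unknown. The intervals below are 95% intervals that cover counting error only.

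Homeobox genes encode transcription factors that bind DNA through a homeodomain and set the identity of tissues in the embryo. The Pax genes were included by name, and some of them, such as Pax1 and Pax9, lack a homeodomain. The families described here act in the eye, brain, limbs, kidney, gut, glands and skeleton, and the sine oculis homologues work with Eya coactivators while LIM-homeodomain (Lhx) proteins work with Ldb cofactors. In mESCs, genes of this kind are typically silent, and many of their CpG-rich starts carry the marks of Polycomb repression.

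Sequences from mm9 at 7 peaks show what lay open near these genes. The first 3 are the stretches of 250 bases just upstream of the first exon, within the TSS peak, of Six4 (the highest-scoring start among the 54 genes; chr12:74214402-74214651, minus strand), of Irx2 (a start with a peak in the WT list only; chr13:72765995-72766244, plus strand) and of Msx1 (a start with a peak in the Spen KO clone 3 list only; chr5:38215823-38216072, minus strand). These 3 were chosen after their values were seen. CG dinucleotides are in capitals, and there are 14 of them at Six4, 21 at Irx2 and 21 at Msx1.
Six4 start: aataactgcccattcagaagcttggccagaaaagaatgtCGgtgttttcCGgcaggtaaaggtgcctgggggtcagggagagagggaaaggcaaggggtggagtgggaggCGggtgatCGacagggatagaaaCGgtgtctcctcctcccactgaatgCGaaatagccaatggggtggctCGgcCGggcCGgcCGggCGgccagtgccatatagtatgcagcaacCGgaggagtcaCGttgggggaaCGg
Irx2 start: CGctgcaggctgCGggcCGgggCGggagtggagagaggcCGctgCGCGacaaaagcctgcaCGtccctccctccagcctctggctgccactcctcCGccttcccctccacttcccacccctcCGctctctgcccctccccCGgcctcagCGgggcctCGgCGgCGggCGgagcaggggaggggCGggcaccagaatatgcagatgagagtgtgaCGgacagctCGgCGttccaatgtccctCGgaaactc
Msx1 start: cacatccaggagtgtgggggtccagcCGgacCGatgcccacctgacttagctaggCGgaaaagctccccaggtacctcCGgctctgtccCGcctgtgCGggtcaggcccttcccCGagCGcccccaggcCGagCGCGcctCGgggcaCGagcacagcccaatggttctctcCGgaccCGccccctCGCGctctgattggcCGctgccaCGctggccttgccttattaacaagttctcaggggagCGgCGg

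The other 4 are the 300 bases around the midpoint of distal peaks, read on the plus strand, and were picked among distal peaks that the naming rule selected by score. They do not show how common the octamer was, since no other distal peak so selected held one. It was in 2 of 26 distal peaks of WT and 3 of 23 of Spen KO clone 3. Capitals mark the octamer ATGCAAAT or its reverse complement (the site of POU factors such as Oct4) in the Six4 peak shared by both lists (chr12:74186962-74187261) and in the Nkx2-1 and Nkx2-2 peaks of the Spen KO clone 3 list only (chr12:57621424-57621723 and chr2:146996498-146996797). They mark the part annotated as an exon of Lhx2 in the WT-only Lhx2 peak (chr2:38224333-38224632).
Six4 distal: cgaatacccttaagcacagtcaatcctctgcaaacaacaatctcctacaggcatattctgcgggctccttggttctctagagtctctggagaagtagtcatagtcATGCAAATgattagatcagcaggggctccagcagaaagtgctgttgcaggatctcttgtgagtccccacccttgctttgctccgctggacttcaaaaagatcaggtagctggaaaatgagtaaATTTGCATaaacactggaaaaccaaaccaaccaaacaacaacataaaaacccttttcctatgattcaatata
Nkx2-1 distal: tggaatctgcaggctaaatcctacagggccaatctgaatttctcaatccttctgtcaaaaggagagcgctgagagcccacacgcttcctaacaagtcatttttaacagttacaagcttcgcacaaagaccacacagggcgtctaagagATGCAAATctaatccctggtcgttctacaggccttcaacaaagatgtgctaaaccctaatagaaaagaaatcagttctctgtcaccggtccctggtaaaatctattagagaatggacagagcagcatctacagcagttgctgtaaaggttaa
Nkx2-2 distal: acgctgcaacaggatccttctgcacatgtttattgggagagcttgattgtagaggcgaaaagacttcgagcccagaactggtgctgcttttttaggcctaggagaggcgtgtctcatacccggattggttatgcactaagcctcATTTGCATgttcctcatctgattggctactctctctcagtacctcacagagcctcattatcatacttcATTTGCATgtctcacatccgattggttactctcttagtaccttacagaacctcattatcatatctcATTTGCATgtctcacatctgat
Lhx2 distal: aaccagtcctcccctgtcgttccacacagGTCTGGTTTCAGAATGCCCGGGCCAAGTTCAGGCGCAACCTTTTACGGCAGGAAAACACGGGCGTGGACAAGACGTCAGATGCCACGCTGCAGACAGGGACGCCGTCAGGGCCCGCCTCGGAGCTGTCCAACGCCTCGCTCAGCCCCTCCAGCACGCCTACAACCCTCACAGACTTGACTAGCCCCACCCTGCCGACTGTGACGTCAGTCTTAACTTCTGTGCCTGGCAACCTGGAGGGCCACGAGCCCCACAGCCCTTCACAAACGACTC

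Of the 54 genes, 28 had no peak at their start in either list (51.9%, interval 38.9 to 64.6%), close to the 50.9% of all autosomal coding genes. A TSS peak of a gene is one whose midpoint lies within 1000 bp of the start of a coding transcript of that gene. Such a peak was found for 19 genes in WT (35.2%, interval 23.8 to 48.5%) and for 17 in Spen KO clone 3 (31.5%, interval 20.7 to 44.7%). Over all autosomal coding genes the shares were 44.7% and 40.7%, each inside the interval.

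The starts of these genes were richer in CpG than most. The most upstream coding start of a gene was called CpG-rich where the 1000 bp around it had a ratio of observed to expected CpG of at least 0.6 and a GC content of at least 50%. By this measure 41 of the 54 starts (75.9%, interval 63.1 to 85.4%) were CpG-rich, against 45.5% of all coding genes. A TSS peak may lie at another start of the same gene. Among CpG-rich starts, 15 of 41 had a TSS peak in WT (36.6%, interval 23.6 to 51.9%) and 16 of 41 in Spen KO clone 3 (39.0%, interval 25.7 to 54.3%). The shares over all CpG-rich starts were 73.0% and 66.0%, above both intervals. Among the 13 other starts, 4 had a TSS peak in WT and 1 in Spen KO clone 3, where all such genes gave 21.1% and 19.6%.

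Other classes of homeobox genes and partner genes were counted in the same way. A TSS peak was found in WT for 5 and in Spen KO clone 3 for 3 of the 39 genes of the Hox clusters, which set position along the body axis. Of 105 other homeobox genes, 31 had one in WT (29.5%) and 35 in Spen KO clone 3 (33.3%). Of 20 partner genes (Eya, Dach, Ldb, Lmo, Ssbp, Tle, Aes and Paxip1), 9 had one in WT and 12 in Spen KO clone 3. For the CpG-rich starts of the other homeobox genes the shares were 38.8% and 40.3%, close to those of the 54 genes.

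**Figure D1:**
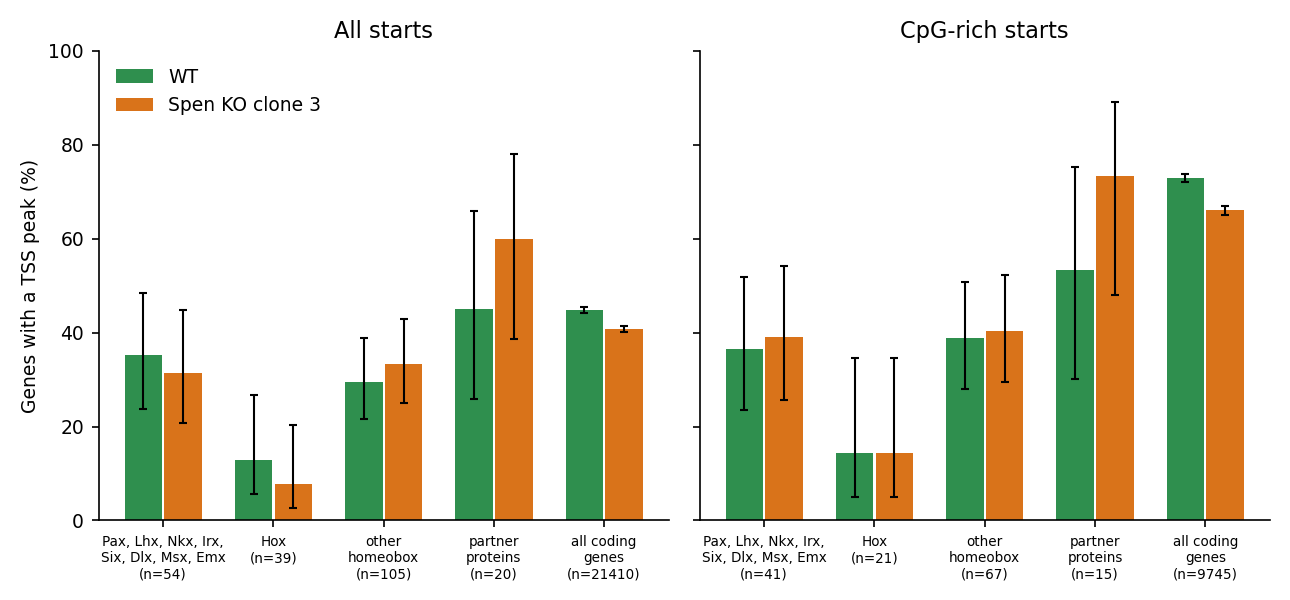
Share of genes with a TSS peak (bars, in percent, with 95% Wilson intervals) in the WT list (green) and the Spen KO clone 3 list (orange), for 5 sets of genes, over all starts (left) and CpG-rich starts (right). The 54 genes stand at 35.2% and 31.5% on the left, and at 36.6% and 39.0% on the right, where all coding genes stand at 73.0% and 66.0%.

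The sharing of these starts by the lists depended on the IDR limit. Of the 26 genes with a TSS peak in either list, 10 had it in both (38.5%, interval 22.4 to 57.5%), while 74.1% of all such coding genes and 23 of 43 such other homeobox genes did (53.5%, interval 38.9 to 67.5%). A TSS peak in the WT list only was found for 9 of the 54 genes (16.7%, interval 9.02 to 28.7%), against 8.35% of all coding genes. A TSS peak in the Spen KO clone 3 list only was found for 7 (13.0%, interval 6.42 to 24.4%), against 4.36%. Starts found in 1 list thus occurred in both directions, and the background lay below the interval in each. Among the other homeobox genes, 7.62% had a TSS peak in WT only (interval 3.91 to 14.3%) and 11.4% in Spen KO clone 3 only (interval 6.66 to 18.9%), so that low sharing and an excess of Spen KO clone 3-only starts over all coding genes were found there too. Among CpG-rich starts alone, 5 of 41 were in WT only (12.2%, interval 5.32 to 25.5%, all CpG-rich starts 12.9%) and 6 of 41 in Spen KO clone 3 only (14.6%, interval 6.88 to 28.4%, all CpG-rich starts 5.89%), so that the background was inside the interval for WT and below it for Spen KO clone 3. The 4 other WT-only genes were among the 13 whose most upstream start was not CpG-rich (30.8%, interval 12.7 to 57.6%, all such genes 4.57%). At Dlx1 and Pax6 the peaks lay at other starts. The CpG ratio in the central 300 bases was 1.02 at the Dlx1 peak and 0.842 at the higher Pax6 peak. It was 0.116 at the lower Pax6 peak, 0.430 at Lhx3 and 0.485 at Nkx2-9.

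Where both lists were limited to peaks with an IDR of at most 0.01, 9 of 15 genes with a TSS peak in either list had it in both (60%, interval 35.7 to 80.2%, all coding genes 71.3%). A TSS peak in WT only was left for 5 of the 54 genes (9.26%, interval 4.02 to 19.9%, all coding genes 8.81%) and one in Spen KO clone 3 only for 1 (1.85%, interval 0.328 to 9.77%, all coding genes 1.87%). At this limit all 3 intervals contained the background.

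The families are small, and their starts are given by gene. Six2, Six4 and Six6 had a TSS peak in both lists, Six5 had one in Spen KO clone 3 only and Six3 had none. Among the Nkx genes, Nkx6-1 had one in both lists, Nkx2-2 and Nkx2-9 in WT only, and Nkx2-1, Nkx2-3 and Nkx3-2 in Spen KO clone 3 only. The 3 Msx genes gave 0 TSS peaks in WT and 2 in Spen KO clone 3 (Msx1 and Msx3). Dlx, Irx, Emx and Lhx genes gave 3, 3, 1 and 2 genes with a TSS peak in WT, and 1, 1, 0 and 1 in Spen KO clone 3. Of the 9 Pax genes, Pax9 had one in both lists, Pax6 in WT only and Pax1 in Spen KO clone 3 only. No difference between families was tested.

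Six4, a gene of muscle and kidney development, had the highest TSS peak of these genes in both lists. Its replicate values were 46.1 and 55.1 in WT and 33.0 and 38.7 in Spen KO clone 3, on a scale that the files do not name. The mean of the replicate values was therefore used only to rank a peak within its list. The Six4 peak stood at percentile 96.8 in WT and 91.9 in Spen KO clone 3, where 100 is the highest score of the list. The values of the 2 lists are not on 1 scale and are not compared with each other.

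Other TSS peaks in both lists stood mostly in the upper part. Nkx6-1, which acts in pancreatic beta cells and the ventral neural tube, stood at percentiles 74.6 and 66.7. Lhx2, needed for eye and forebrain, stood at 71.7 and 73.5. Six2, which keeps nephron progenitors, stood at 72.8 and 63.8. Irx6 stood at 46.4 and 46.3, but its shift was -14.6 points with replicate 1 alone and 12.1 with replicate 2 alone.

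Among the 10 shared starts, ranks moved both ways from WT to Spen KO clone 3, and the direction at Six2, Lhx2, Nkx6-1 and Irx6 turned where the value of 1 replicate replaced the mean. The rise was largest at Pax9, a factor of tooth, thymus and vertebral development, whose replicate values were 17.2 and 16.7 in WT (percentile 36.3) and 21.97 and 20.6 in Spen KO clone 3 (percentile 65.6), a shift of 29.2 percentile points (28.6 and 24.8 with replicate 1 or 2 alone). At Six6, an eye and pituitary gene, the values were 25.3 and 16.5 in WT and 25.8 and 22.2 in Spen KO clone 3, a shift of 17.8 points (8.79 and 30.9 with replicate 1 or 2 alone). At Dlx5, which shapes jaw and limb, they were 13.7 and 15.6 in WT and 10.2 and 7.30 in Spen KO clone 3, a shift of -18.0 points (-10.2 and -30.7 with replicate 1 or 2 alone). The median shift of the 10 was -5.04 points (interval -9.63 to 17.8), beside -2.88 over all shared autosomal TSS peaks.

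The 9 starts with a peak in WT only ranged from the lowest ranks to well above the median. The highest was Dlx1, a gene of forebrain interneurons, with replicate values of 24.6 and 24.3 (percentile 68.4) and the nearest Spen KO clone 3 peak at 126 kb. Irx2, an Iroquois gene whose start is printed above, had 21.4 and 25.2 (percentile 64.7), with the nearest Spen KO clone 3 peak at 189 kb. Emx1, a marker of the cerebral cortex, had 25.4 and 12.5 (percentile 47.9), so that its replicates differed by more than those of Dlx1 or Irx2. These 3 were the leading WT-only starts.

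Lower down, Irx5 stood at percentile 34.4, but a shared peak at the start of the neighbouring gene 4933436C20Rik lay 1.65 kb upstream of the Irx5 start, with percentiles 80.3 in WT and 71.0 in Spen KO clone 3. Lhx3, a pituitary and motor neuron gene, stood at 31.3. Pax6, the eye and brain regulator, had 2 TSS peaks in WT at percentiles 17.7 and 3.98, next to different ones of its many starts. Nkx2-9, Dlx6 and Nkx2-2 stood at 5.47, 5.16 and 2.35, among the lowest scores of the list, and the Nkx2-2 peak, at 0.998 kb, was just inside the distance limit.

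The 7 starts with a peak in Spen KO clone 3 only were all below the median of the list. The highest was Msx1, a gene of tooth, palate and limb buds, with replicate values of 15.8 and 19.7 (percentile 49.3), a peak centred 0.014 kb from the start and the nearest WT peak at 10.9 kb. Six5 had 12.2 and 17.8 (percentile 32.4), and a WT-only distal peak lay 800 bp from it, so that both lists held a low peak upstream of this gene. Pax1, a sclerotome gene, stood at percentile 19.03, Nkx3-2, a skeletal repressor, at 18.7, and Nkx2-1, which directs thyroid, lung and ventral forebrain, at 15.3. Msx3 and Nkx2-3 stood at 5.14 and 0.425, at the bottom of the list. The Nkx2-1 peak lay 0.993 kb from the start, also just inside the limit.

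**Figure D2:**
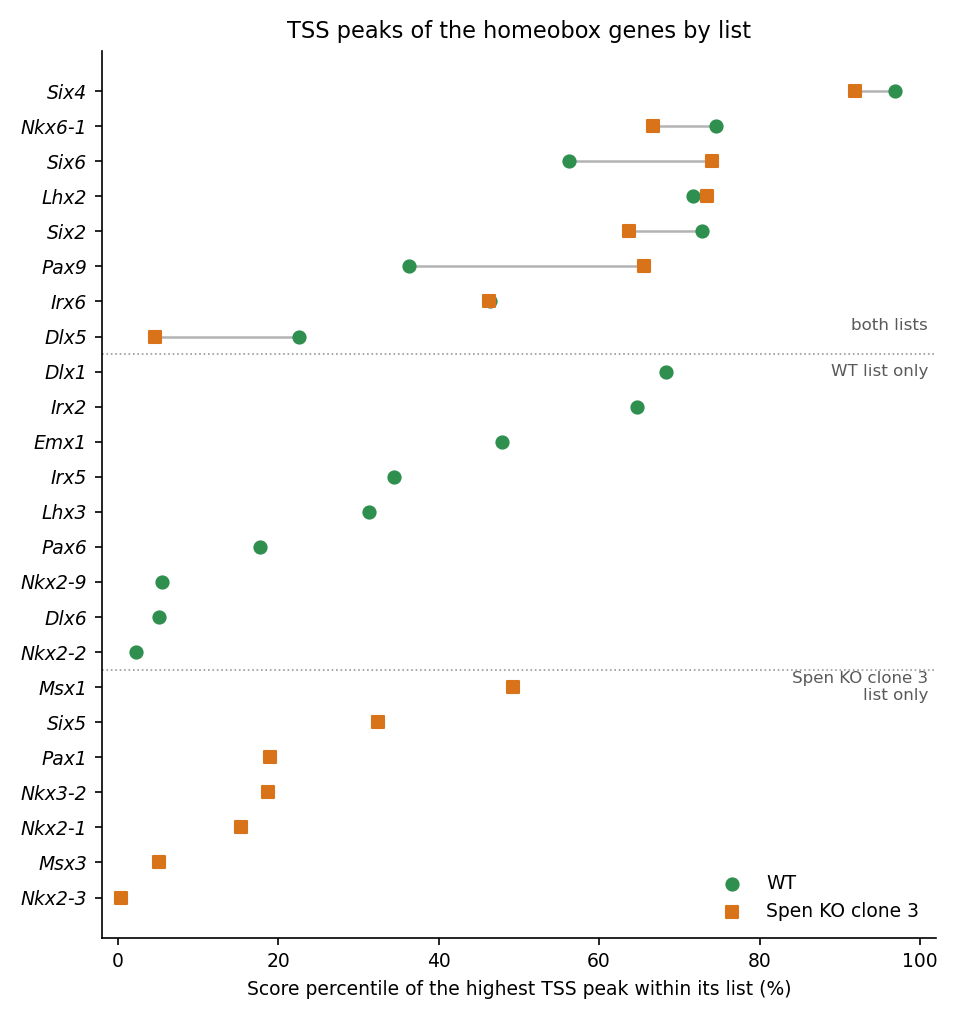
Score percentile within its list (x axis, percent) of the highest TSS peak of 24 of the 26 genes with one, in WT (green circles) and Spen KO clone 3 (orange squares). Grey lines join the values of the 8 genes drawn with a peak in both lists, and dotted lines separate these from the 9 genes with a peak in WT only and the 7 with one in Spen KO clone 3 only. The genes found in 1 list lie below percentile 70, and those of Spen KO clone 3 only below 50.

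The median score and width of the TSS peaks were below those over all TSS peaks. The 21 WT peaks had a median percentile of 46.4 (interval 17.7 to 68.4), beside 60.9 over all autosomal TSS peaks, and the 17 Spen KO clone 3 peaks one of 49.0 (interval 18.7 to 66.7), beside 58.1. The median width was 493 bp in WT (interval 424 to 562 bp, all TSS peaks 639 bp) and 540 bp in Spen KO clone 3 (interval 483 to 610 bp, all TSS peaks 608 bp). The width over all TSS peaks lay above the interval in WT and inside it in Spen KO clone 3. The percentile over all TSS peaks lay inside the interval in both lists.

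Counted by peak, 26 of the 54 WT peaks near these genes were found in the WT list only (48.1%, interval 35.4 to 61.1%), against 26% of all autosomal WT peaks. For Spen KO clone 3 it was 18 of 46 (39.1%, interval 26.4 to 53.5%), against 28.4%. At the starts, 11 of 21 WT peaks were found in 1 list (52.4%, interval 32.4 to 71.7%, all TSS peaks 20.7%), and 7 of 17 Spen KO clone 3 peaks (41.2%, interval 21.6 to 64.0%, all TSS peaks 13%). Among distal peaks, with no coding start within 1000 bp, it was 14 of 26 in WT (53.8%, interval 35.5 to 71.2%, all distal peaks 29.9%) and 11 of 23 in Spen KO clone 3 (47.8%, interval 29.2 to 67.0%, all distal peaks 37.5%). The background lay below the interval for all 3 counts of WT peaks and for the TSS peaks of Spen KO clone 3, and inside it for all peaks and for the distal peaks of Spen KO clone 3. Over the autosomal peaks within 20 kb of any coding gene, as the peaks here are by their rule, the shares were 26.7% in WT and 24.9% in Spen KO clone 3, and 33.1% and 36.0% for distal peaks. Against these, the background lay below the interval also for all peaks of Spen KO clone 3. For the other homeobox genes, the share at starts was 25% in WT (interval 13.3 to 42.1%) and 38.5% in Spen KO clone 3 (interval 24.9 to 54.1%). Of the peaks at starts of other genes within the windows, 1 of 7 was in WT only (14.3%, interval 2.57 to 51.3%) and 0 of 6 in Spen KO clone 3 only (interval 0 to 39.0%).

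Peaks found in 1 list had low scores, here as elsewhere. Of the 26 WT-only peaks, 2 were above the median score of the list (the starts of Dlx1 and Irx2), and of the 18 Spen KO clone 3-only peaks, 0 were. Among all autosomal peaks found in 1 list, 11.99% in WT and 15.7% in Spen KO clone 3 were above the median of their list. An IDR over 0.01 was found for 18 of the 26 (69.2%, interval 50.01 to 83.5%) and 17 of the 18 (94.4%, interval 74.2 to 99.0%), where all peaks found in 1 list gave 68.7% in WT and 73.0% in Spen KO clone 3. Of the 28 shared peaks, 4 had such an IDR in the WT list and 6 in the other (14.3% and 21.4%, all shared peaks 20.8% and 26.7%). With both lists limited to an IDR of at most 0.01, 11 of 32 WT peaks (34.4%, interval 20.4 to 51.7%, all peaks 27.4%) and 2 of 23 Spen KO clone 3 peaks (8.70%, interval 2.42 to 26.8%, all peaks 22.2%) were found in 1 list, and both intervals contained the background. Over all peaks above the median, 6.29% of the WT and 9.02% of the Spen KO clone 3 peaks were found in 1 list. The peaks were therefore set beside all peaks of the same class in the same score bin of 25 percentile points, a breakdown chosen after the data had been seen. At the rates of all peaks in those bins, 31.7% of the WT and 20.05% of the Spen KO clone 3 TSS peaks would be found in 1 list, and 41.0% and 44.4% of the distal ones. The observed shares were 52.4% and 41.2% for TSS peaks and 53.8% and 47.8% for distal peaks. The rate at matched score lay just below the interval for the TSS peaks of both lists and inside it for the distal peaks of both. Low scores thus moved with the peaks found in 1 list, and their part in the difference between the lists was not tested further.

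**Figure D3:**
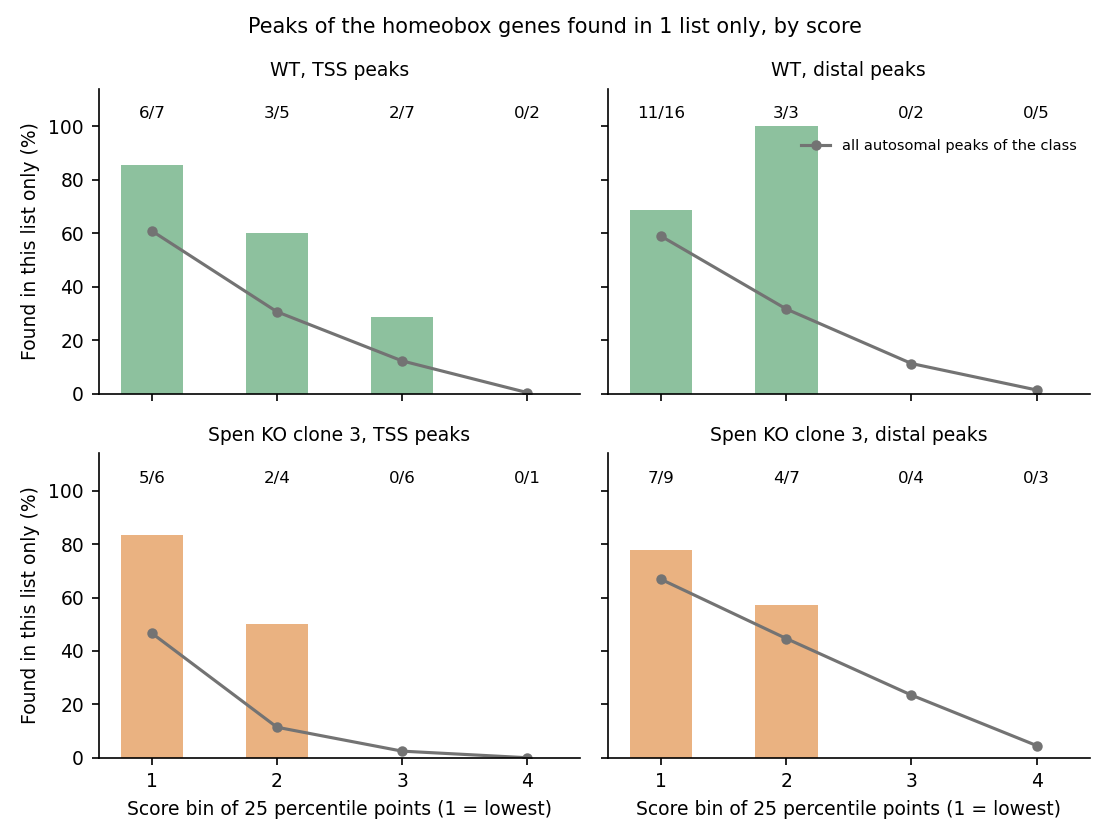
Share of peaks found in 1 list only (y axis, percent) by score bin of 25 percentile points (x axis, 1 is the lowest), for TSS peaks (left) and distal peaks (right) of WT (top) and Spen KO clone 3 (bottom). Bars are the peaks of the 54 genes, with their counts written above, and the grey line is all autosomal peaks of the class. The grey line falls with score, and none of the peaks of the 54 genes in the highest bin of WT or in the upper 2 bins of Spen KO clone 3 was found in 1 list.

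Distal peaks reached high scores at a few genes and were shared there. The highest was 9.36 kb upstream of Nkx2-6, a gene of the pharynx and heart, with replicate values of 46.8 and 45.1 in WT (percentile 95.2) and 45.01 and 43.99 in Spen KO clone 3 (percentile 96.4). The nearest coding start to the WT peak was that of Rps2-ps5, 3.37 kb away. Of the 24-base sequences of this peak, 27.8% in WT and 27.1% in Spen KO clone 3 occur at least 10 times in the genome. The Six4 distal peak, 27.1 kb downstream of the start of that gene, stood at 94.2 and 93.9 and holds 2 octamers. A Pax5 peak in an intron 5.85 kb from the start stood at 92.4 and 88.8. Pax5 specifies B lymphocytes, and its start had no peak in either list.

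Distal peaks also shifted in rank. A peak in an exon of Pax6, 2.01 kb from the nearest start, had replicate values of 17.3 and 12.4 in WT (percentile 23.6) and 18.995 and 24.6 in Spen KO clone 3 (percentile 67.4), a shift of 43.8 points (16.7 and 60.9 with replicate 1 or 2 alone). The peak 11.6 kb downstream of Msx2 rose from percentile 2.35 to 29.6, a shift of 27.2 points (34.6 and 23.5 with replicate 1 or 2 alone), while the other Msx2 peak, 2.86 kb upstream, moved by -17.7 points (-37.8 and 0.938 with replicate 1 or 2 alone). The shift was 18.1 points at the peak between Dlx5 and Dlx6 (39.4 with replicate 1 alone and -2.91 with replicate 2 alone) and 16.8 at that near Six3 (-1.24 with replicate 1 alone and 39.98 with replicate 2 alone). The median shift of the 12 shared distal peaks was 0.616 points (interval -11.8 to 18.1), beside 2.99 over all shared distal peaks.

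**Figure D4:**
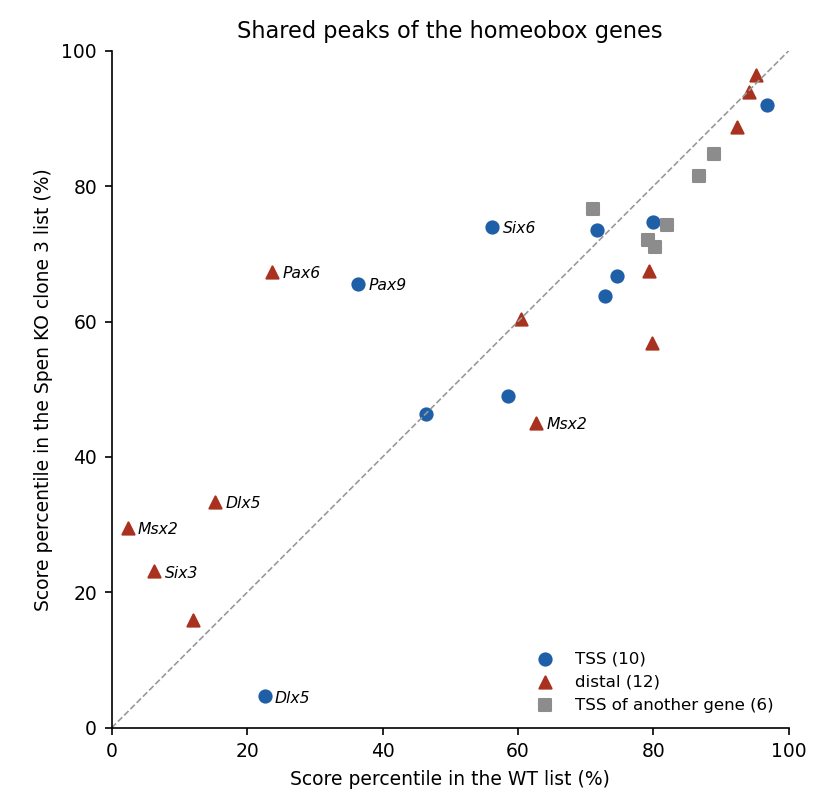
Score percentile of the 28 shared peaks in the WT list (x axis) and in the Spen KO clone 3 list (y axis), both in percent, for TSS peaks (blue circles, 10), distal peaks (red triangles, 12) and peaks at the start of another gene (grey squares, 6). The dashed line marks equal percentiles, and the peaks described in the text with shifts of over 15 points are named. Pax6 (distal) and Pax9 (TSS) lie farthest above the line, and Dlx5 (TSS) and Msx2 (distal) lie below it.

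Distal peaks found in 1 list stood lower. In the WT list, the 5 highest were in an exon of Lhx2 (16.4 kb from the nearest start, values 14.3 and 21.5, percentile 42.0), in Pax3 (percentile 33.9), in Pax5 (28.2), in Psd4 beside Pax8 (24.6) and upstream of Lhx5 (20.3). The Pax3 peak lies in an intron of that neural crest and muscle gene, 7.11 kb from its start, and its 300 bases have a GC content of 72.3% and 32 CG dinucleotides. In the Spen KO clone 3 list, the 5 highest were near Nkx3-2 (percentile 38.9), in an exon of Irx4 (37.5), in Pax8 (31.7), near Nkx2-2 (26.9) and near Nkx2-1 (21.3). Irx4, a gene of the heart ventricle, had 1 distal peak in each list, 17.1 kb apart, and so none that was shared.

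The Nkx2-2 site stood apart in sequence. This peak lies 15.35 kb from the start of Nkx2-2, a factor of the ventral neural tube and pancreas, with replicate values of 16.3 and 11.9. Of its 24-base sequences, 79.2% occur at least 10 times in the genome, with a median of 192 copies, and it holds 3 octamers. It was the only multi-copy peak (at least 50% of 24-base sequences with at least 10 copies) among the 100 peaks of these genes. Among the distal peaks found in 1 list, that made 1 of 11 in Spen KO clone 3 (9.09%, interval 1.62 to 37.7%, all autosomes 20.4%) and 0 of 14 in WT (interval 0 to 21.5%, all autosomes 5.04%), and both intervals contained the background. Its sequence matched 4 other Spen KO clone 3 peaks, of which 3 were absent from WT, and 3 WT peaks, of which 2 were absent from Spen KO clone 3 (at least 80% identity over at least 100 bp). The repeat family was not named here.

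Other letters searched in the 300 bases at the centre of distal peaks, on either strand, were rare. The octamer ATGCAAAT was in 2 of 26 WT peaks (7.69%, all distal peaks 4.62%) and in 3 of 23 Spen KO clone 3 peaks (13.0%, all distal peaks 4.46%). The homeodomain core TAATTA was in 1 peak of each list, beside 6.06% and 6.13% of all distal peaks. The CTCF core, which is CC, any 3 bases and then AGGGGGC or AGGTGGC, was in 1 WT peak and 2 Spen KO clone 3 peaks (all distal peaks 6.72% and 9.35%). The Sox letters AACAATG were in 1 WT peak, near Six3, and in 0 of the Spen KO clone 3 peaks (all distal peaks 5.28% and 5.17%). The Klf letters CCACACCC were in 0 of 26 and 0 of 23 (all distal peaks 4.88% and 5.06%), and the Esrrb letters TCAAGGTCA in 0 of both (0.788% and 1.03%). The intervals of all these shares contained the share over all distal peaks, except for the octamer in Spen KO clone 3, whose lower bound of 4.54% was just above it. That octamer share rests on 3 peaks, 1 of them the multi-copy Nkx2-2 peak.

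Distal peaks of the 54 genes and of the other homeobox genes were richer in CpG than all autosomal distal peaks. The latter include peaks far from genes, and CpG was not compared with distal peaks within 20 kb of any coding gene. The median ratio of observed to expected CpG in the central 300 bases was 0.538 in WT (interval 0.266 to 0.647) and 0.382 in Spen KO clone 3 (interval 0.2997 to 0.534), against 0.239 and 0.238 over all distal peaks. The distal peaks of the other homeobox genes had medians of 0.367 (interval 0.278 to 0.465) and 0.402 (interval 0.274 to 0.512), which overlapped these intervals. Median GC content was 59.2% and 56.7%, against 53.0% and 52.7%. The lower bound of each interval of the CpG ratio was above the value over all distal peaks. In GC content this held for WT, with an interval of 55.3 to 64.3%, and not for Spen KO clone 3, with one of 51.3 to 63.7%.

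Several of the genes lie side by side, and their peaks are not independent. Nkx2-1, Nkx2-9 and Pax9 span 181 kb of chr12 (57632922-57813809), where only Pax9 had a start shared by both lists, Nkx2-9 had a WT-only and Nkx2-1 a Spen KO clone 3-only peak. Nkx2-4, Nkx2-2 and Pax1 span 310 kb of chr2, with 0, 1 and 0 starts open in WT and 0, 0 and 1 in Spen KO clone 3. Dlx1 and Dlx2 had 1 WT-only start, Dlx6 had a WT-only start beside the shared one of Dlx5, Dlx3 and Dlx4 had none, and Six2 had a shared start while Six3 had none.

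Numbers of peaks per gene were small. Dlx5 and Dlx6, a convergent pair that shares a window, each had 4 distinct peaks over both lists, 7 genes had 3 (Msx1, Nkx1-2, Nkx2-1, Nkx2-2, Pax5, Pax6 and Six5), 17 had 2 and 15 had 1. In 13 genes (24.1%, interval 14.6 to 36.9%, all coding genes 23.9%) there was no peak in the window in either list, and these were Dlx3, Dlx4, Emx2, Irx1, Irx3, Lhx4, Lhx8, Nkx2-4, Nkx2-5, Nkx6-2, Pax2, Pax4 and Pax7. Of the 13, 10 had a CpG-rich start. Their starts lay 25.2 kb (Pax4) to 456 kb (Irx1) from the nearest WT peak and 25.2 to 382 kb from the nearest Spen KO clone 3 peak. The other genes with no TSS peak were Dlx2, Irx4, Lhx1, Lhx5, Lhx6, Lhx9, Msx2, Nkx1-1, Nkx1-2, Nkx2-6, Nkx6-3, Pax3, Pax5, Pax8 and Six3.

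Windows that held peaks of 1 list only were found for 7 of the 54 genes in WT (13.0%, interval 6.42 to 24.4%, all coding genes 6.75%) and 4 in Spen KO clone 3 (7.41%, interval 2.92 to 17.6%, all coding genes 4.52%). The interval contained the background in both, and the other homeobox genes gave 14.3% and 10.5%. Both peaks at Emx1 and both at Irx2 were in WT only, as were the single peaks at Lhx3, at Dlx1 (in the window of Dlx2 too), Nkx2-9 and Pax3. All peaks at Nkx2-3 (1), Nkx3-2 (2), Nkx6-3 (2) and Pax1 (2) were in Spen KO clone 3 only, and no WT peak lay within 20 kb of these genes. At Nkx6-3, a gene of the stomach, both were distal, at percentiles 18.8 and 1.21. The widest peaks in the windows were mostly at the starts of neighbouring genes, with 934 bp at Zfp511 beside Msx3, 896 bp at Oat beside Nkx1-2 and 845 bp distal to Irx2 in WT, and 982 bp at Oat, 884 bp at Zfp511 and 822 bp at 2310009B15Rik beside Lhx9 in Spen KO clone 3.

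**Figure D5:**
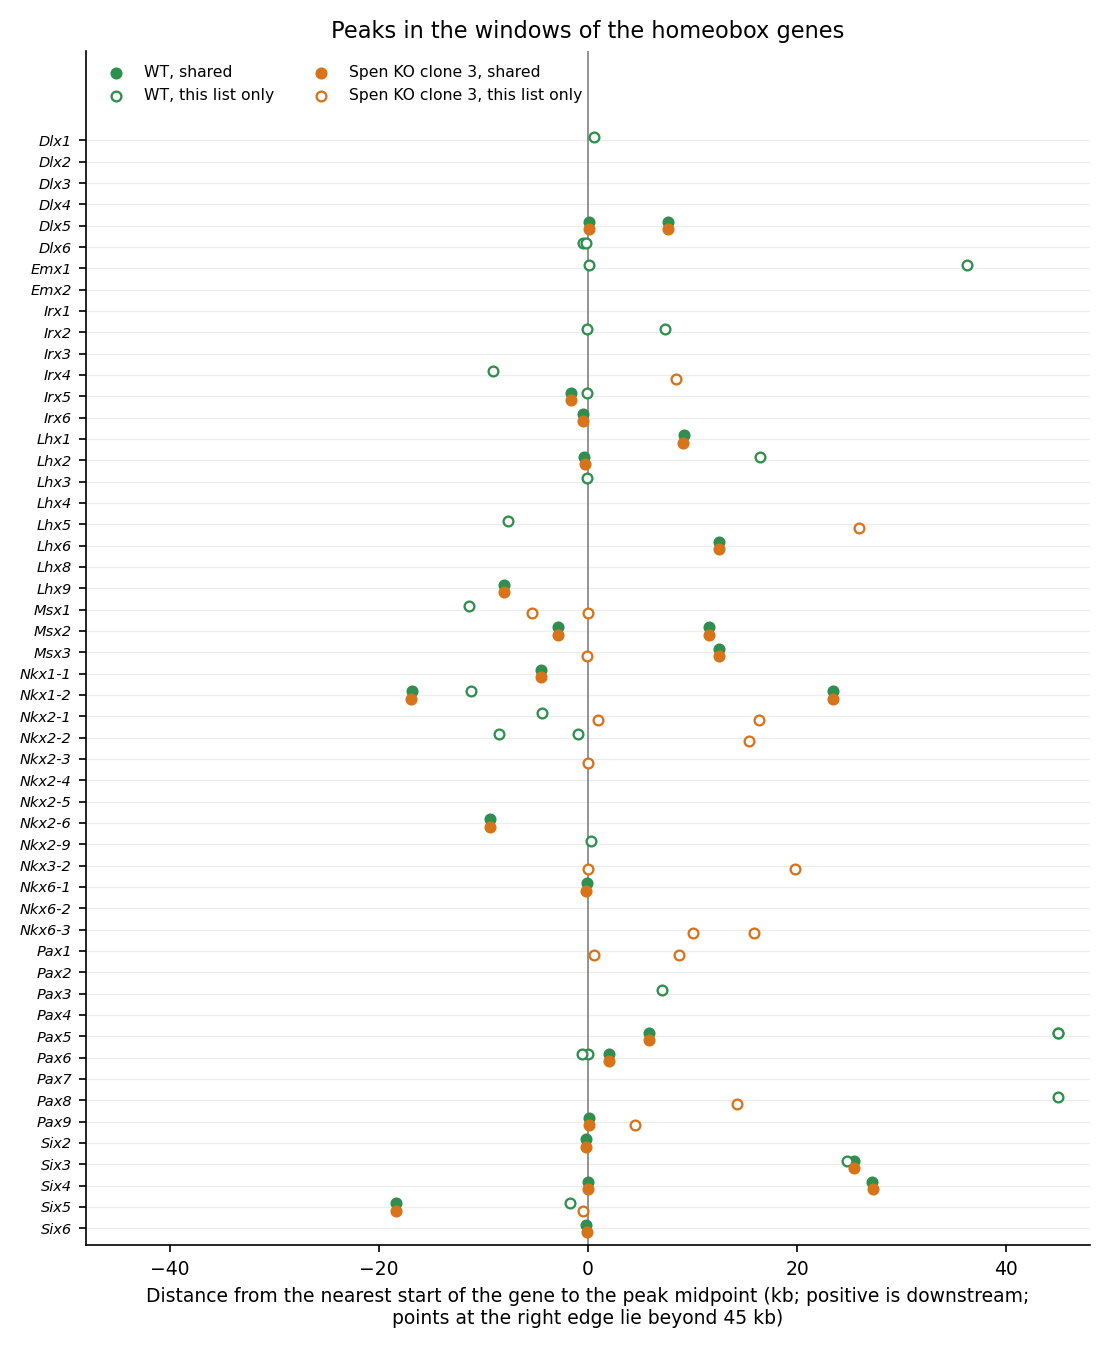
Distance from the nearest start of a gene to each peak midpoint (x axis, kb, positive is downstream) for 52 of the 54 genes (rows), WT in green and Spen KO clone 3 in orange, filled where the peak is shared and open where it is found in 1 list only. Each peak is drawn at its nearest gene among the 54, and 3 WT peaks of Pax5 and Pax8 lie beyond the right edge. Filled pairs stand at the starts of 8 genes, and 13 genes have an empty row, as does Dlx2, whose only peak is drawn at Dlx1.

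As a check of the cell type, starts of marker genes were looked up. Of 9 mESC markers matched by name, 4 had a TSS peak in WT (Klf2, Sox2, Tbx3 and Zfp42) and 5 in Spen KO clone 3 (Dppa3, Klf2, Klf4, Tbx3 and Zfp42), while Pou5f1, Nanog and Esrrb had none in either list. All autosomal coding genes gave 44.7% in WT and 40.7% in Spen KO clone 3, so these counts do not set mESC markers apart from other genes. Since Pou5f1 and Nanog define mESCs, a missing TSS peak does not show that a gene is silent here. Of the markers of other cell types, TSS peaks were found in WT and Spen KO clone 3 for 1 and 0 of 5 fibroblast, 2 and 1 of 4 endoderm, 0 and 1 of 3 trophoblast and 1 and 1 of 4 neural genes. Their part in the values of the homeobox genes was not tested.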

How the data were processed

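ATAC-seq was run on WT, Spen KO clone 2 and Spen KO clone 3 mESCs, and the peak lists of WT and Spen KO clone 3 were used. Spen KO clone 2 was not used here. The authors' lists rest on de-duplicated (Picard), uniquely placed read pairs in mm9 coordinates, obtained with CutAdapt and Bowtie2. Peaks were then called by the authors with MACS2 (no shifting model) for each technical replicate, and those passing an IDR threshold between replicates were kept. The deposited lists give for each peak a position, a length, a value per replicate on a scale that is not named, and the IDR (at most 0.0500). The lists had 0 columns of other samples. Presence in a list depends on these thresholds and on the depth of the libraries, which is not known.

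Only chromosomes 1 to 19 and X were kept, which dropped 55 WT and 66 Spen KO clone 3 peaks. Peaks overlapping by at least 1 bp were called shared. The score was the mean of the replicate values, ranked within a list (Spearman's rho between replicates, across peaks, 0.829 in WT and 0.834 in Spen KO clone 3). The rank shift is the Spen KO clone 3 percentile minus that of the overlapping WT peak. Genes, starts and sequence came from the mm9 GENCODE annotation and genome. Shares carry 95% Wilson and medians 95% binomial intervals. All 54 genes enter every count, and 2 of them, with 1 peak sequence, are not reported here by name or value. Among the others, values were given for the highest start of each family in WT, the starts found in 1 list, the genes with most peaks, the 5 largest and 5 smallest shifts at starts, the 5 highest distal peaks of each list found in 1 list and the 3 widest peaks of each list. The genes, comparison lists and measures were chosen with earlier results of these data known. The multi-copy measure, the score bins, the IDR limit of 0.01 for starts found in 1 list, the sequence matches and the share of starts in both lists were added after seeing the data. Overlap, distances, intervals and copy counts were tested on simulated data. Software was samtools 1.23.1, BLAST 2.17.0, pysam 0.24.0, scipy 1.17.1, numpy 2.4.6, pandas 2.3.3 and matplotlib 3.10.9 under Python 3.11.15.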

Additional observations from a re-analysis of the deposited data

How the results depend on the processing

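Under the 18 settings tried, 58 of the 72 recomputed counts, shares and medians kept their sign and stayed within 1.5 times the count or within the interval of the main value. The stricter IDR limit of 0.01 moved more results than any other setting. It left 10 genes with a TSS peak in Spen KO clone 3 (14 in WT), 5 with one in WT only (9.26%, all coding genes 8.81%), 1 with one in Spen KO clone 3 only (1.85%, all coding genes 1.87%) and 24 with no peak at all. The share of peaks found in 1 list became 34.4% in WT and 8.70% in Spen KO clone 3 (all autosomal peaks 27.4% and 22.2%), and both intervals then contained the background. At scores at or above the list median it was 9.09% and 0% (all peaks 6.29% and 9.02%). Where the peak had to cover the start itself, the 7 starts found in Spen KO clone 3 only became 4. The 9 in WT only then became 6, and the 10 in both lists became 8. Genes with no peak numbered 25 with the gene body alone and 6 with a window of 50 kb. Calling peaks multi-copy from 25% of 24-base sequences gave 1 peak in WT and 2 in Spen KO clone 3.

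The median rank shift of shared peaks, -3.90 points in all, was 0.616 in distal peaks, -0.291 with the value of replicate 1 alone and -1.15 with replicate 2 alone. With the value of replicate 1 alone, shifts changed sign at Six2 (10.05) and Lhx2 (-11.6) and at the distal peaks of Lhx6 (8.53) and Six3 (-1.24). With replicate 2 alone they did so at Nkx6-1 (6.796) and Irx6 (12.1) and at the distal peaks of Msx2 (0.938, the peak nearer to the start), Six4 (0.190) and Dlx5 (-2.91). The shifts of Pax9, Six6 and Dlx5 at their starts and of the distal Pax6 peak kept their sign with either replicate, but except at Pax9 their sizes moved by over 1.5 times (16.7 and 60.9 in place of 43.8 at Pax6). The causes were not tested. No paired analysis was possible because each line has 1 list. Leaving out a replicate was not possible for presence in a list. Depth is unknown, so low peaks limit every count.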
